A study of Mus musculus with 12 samples.

Results

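The genes described here are 34 genes of cholesterol synthesis, sterol sensing, sterol movement and sterol efflux, out of 43629 genes in a count table from mouse pre-T cells. They are a list of names drawn from what the genes are known to do, made with earlier results of these data known. They comprise 18 enzymes of sterol synthesis, 2 enzymes that supply its substrate or leave it at a branch point, 5 genes of the sterol sensing machinery, 4 genes of sterol movement and storage, and 5 genes of the liver X receptor (LXR) and efflux arm. All 34 symbols matched 1 row of the table each, and all 34 passed the filter on low counts that left 13944 genes to be tested. Total RNA was sequenced from sorted thymic pre-T cells in 12 libraries, 4 biological replicates in each of 3 groups. DN3a cells, which have not yet passed the pre-T cell receptor checkpoint called beta-selection, and DN3b cells, which have just passed it, came from control mice with floxed alleles of Zfp36l1 and Zfp36l2 (Zfp36l1fl/fl, Zfp36l2fl/fl) and no Cre. The third group, called DCKO here as in the labels, holds DN3-like cells of mice with the same floxed alleles and the transgene CD2cre, which deletes both genes in lymphoid cells. The strain of all 3 groups was C57BL/6, and ages were not given in the sources used here. Since the control mice carried no Cre, the loss of the 2 genes and the presence of Cre cannot be told apart.

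Cholesterol is built from acetyl-CoA through mevalonate and the isoprenoids, then squalene and lanosterol, and the isoprenoids also feed protein prenylation, dolichol and ubiquinone. When membrane sterol is low, Scap carries the SREBP transcription factors (Srebf1, Srebf2) out of the endoplasmic reticulum to be cleaved, and they switch on the synthesis genes. When sterol is plentiful, Insig proteins hold Scap back, and oxysterols activate LXR (Nr1h2, Nr1h3), which switches on the exporters Abca1 and Abcg1 and the ubiquitin ligase Mylip. Thymocytes that pass beta-selection grow and divide, and dividing cells need sterol for new membrane. Zfp36l1 and Zfp36l2 are RNA-binding proteins that bind AU-rich sites in 3' untranslated regions and promote decay of the messages.

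The libraries held 28479157 to 45975678 counts each. Zfp36l1 stood at 27.1 to 43.9 CPM (the usual depth-scaled count unit, with library sizes adjusted by edgeR's TMM factors) in DN3a, at 9.63 to 23.3 CPM in DN3b and at 1.64 to 3.80 CPM in DCKO. Zfp36l2 stood at 340.9 to 685 CPM in DN3a, at 287 to 467 CPM in DN3b and at 45.4 to 87.9 CPM in DCKO. Both targeted genes were thus lowest in all 4 DCKO libraries. The summed level of 10 T lineage markers was 6663 to 9009 CPM in DN3a, 4369 to 6060 CPM in DN3b and 7273 to 12120 CPM in DCKO. Of 6 stage markers the sum was 66.1 to 99.2, 117 to 160.5 and 75.5 to 93.5 CPM in the same order, with Cd28 at 42.7 to 58.8, 83.2 to 112 and 40.1 to 54.2 CPM and Cd8b1 at 0.31 to 0.71, 8.69 to 26.7 and 2.88 to 10.5 CPM. Of 14 myeloid markers the sum was 25.0 to 36.4 CPM in DN3a, 6.31 to 15.4 CPM in DN3b and 13.8 to 27.2 CPM in DCKO. Lyz2 averaged 23.8, 4.25 and 9.26 CPM of it and Cd68 3.32, 3.51 and 3.28 CPM, while Csf1r, Cd14, C1qa, Adgre1 and Mertk stayed at or below 0.64 CPM in every library. Of 8 dendritic markers, mostly Flt3, the sum was 7.38 to 11.4, 7.81 to 10.4 and 12.4 to 21.5 CPM, so DCKO lay above both control groups. The sum of 6 B cell markers was 42.7 to 58.4 CPM in DN3a, 9.76 to 32.1 CPM in DN3b and 18.7 to 24.7 CPM in DCKO, nearly all of it Cd79b. Of 9 stromal markers the sum was 194.5 to 270, 82.4 to 165 and 90.4 to 154 CPM, nearly all of it Epcam (means 96.1, 24.4 and 12.6 CPM) and Pecam1, while Krt5 and Foxn1 were at most 0.065 CPM. Of 5 erythroid and platelet markers the sum was 6.44 to 20.6, 2.18 to 22.8 and 2.98 to 14 CPM, and 3 gamma-delta T cell markers summed to 470 to 576, 142 to 298 and 139 to 296 CPM. Nearly all of the gamma-delta sum was Tcrg-C1 (means 503, 185.5 and 168.6 CPM). Sox13 averaged 18.5, 15.3 and 13.2 CPM, and Zbtb16 averaged 5.255, 3.116 and 9.003 CPM, highest in DCKO. The part of these other cell markers, and of the stage markers, in the comparisons was not tested. Malat1, a nuclear RNA, held 0.583 to 0.841% of each DN3a library, against 0.0991 to 0.241% of each DN3b and 0.0987 to 0.205% of each DCKO library, and its part in the comparisons with DN3a was not tested. DCKO library 1 had 9.02% of its counts in 1 feature, against at most 2.61% in any other library.

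Of the 18 synthesis enzymes, 8 were higher in DN3b than in DN3a and 9 were higher in DCKO than in DN3b, with 5 in both sets (Idi1, Fdps, Fdft1, Sqle and Cyp51), while most of the LXR and efflux genes were lower in both than in DN3a. From DN3a to DN3b, 11 of the 34 genes rose and 8 fell, beside 27.4% higher and 25.2% lower among all genes tested (edgeR's quasi-likelihood test, Benjamini-Hochberg adjusted p under 0.05 over all 13944 genes). Of the synthesis enzymes 8 rose and 2 fell, with a median log2 difference of 0.37 against -0.02 over all genes. Of the 5 LXR and efflux genes 3 fell (Abca1, Abcg1 and Mylip), with a median of -1.09 over the 5. DN3b and DN3a did not overlap for 7 of the 34 genes on the higher side and 5 on the lower, beside 24.8% and 23% of all genes. Upper quartile scaling in place of TMM moved the split over all genes from 3815 higher and 3519 lower to 3021 and 4536, and 7 of the 34 genes were then higher. Same-numbered DN3a and DN3b libraries deviated together. With the replicate number as a block 17 of the 34 genes rose, and the share of all genes that rose also went up, from 27.4% to 33%. Hmgcs1 (0.30, adjusted p = 0.00732), Mvk (0.37, adjusted p = 0.0166), Mvd (0.38, adjusted p = 0.0208), Srebf1 (0.41, adjusted p = 0.00219), Srebf2 (0.25, adjusted p = 0.0445) and Nr1h2 (0.21, adjusted p = 0.0261) were the 6 added. In bulk samples a lower value from fewer cells of a type and one from less RNA per cell cannot be told apart.

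From DN3a to DCKO, 16 of the 34 genes were higher and 7 lower, beside 30.7% and 29.5% of all genes tested. Of the synthesis enzymes 13 of 18 were higher and 2 lower, with a median log2 difference of 0.56 against -0.04 over all genes. The groups did not overlap for 14 of the 34 genes on the higher side and 5 on the lower, beside 27.8% and 27.1% of all genes. With upper quartile scaling the split over all genes went from 4275 higher and 4116 lower to 3119 and 5528, and 12 of the 34 genes were higher.

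Between DCKO and DN3b, 13 of the 34 genes were higher and none lower, beside 10.3% higher and 8.58% lower among all genes. Before adjustment 2 of the 34, Pmvk and Tm7sf2, passed 0.05 on the lower side, and neither DESeq2 nor limma-voom called any of the 34 lower. With upper quartile scaling the split over all genes went from 1438 higher and 1197 lower to 1051 and 1644, and Pmvk was called lower (-0.51, adjusted p = 0.0483). The 13 were 9 synthesis enzymes, Ggps1, Insig1, Insig2 and Npc1, and the groups did not overlap in 11 of the 34 genes on the higher side, beside 11% of all genes, and in 1, Tm7sf2, on the lower side, beside 9.87%. The count rested partly on single libraries, as did the count over all genes. Without DN3b library 2, 8 of the 34 remained, beside 5.93% of all genes. Without DCKO library 1, 8 remained, beside 6.3%, and 6 remained without DCKO libraries 1 and 2. In the last case 3.62% of all genes were called higher, and the 6 were Hmgcs1, Fdps, Fdft1, Msmo1, Hsd17b7 and Insig1. These 6 genes kept their call in all 21 alternatives tried. The 3 comparisons share their libraries pairwise, so they do not support one another.

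**Figure D1:**
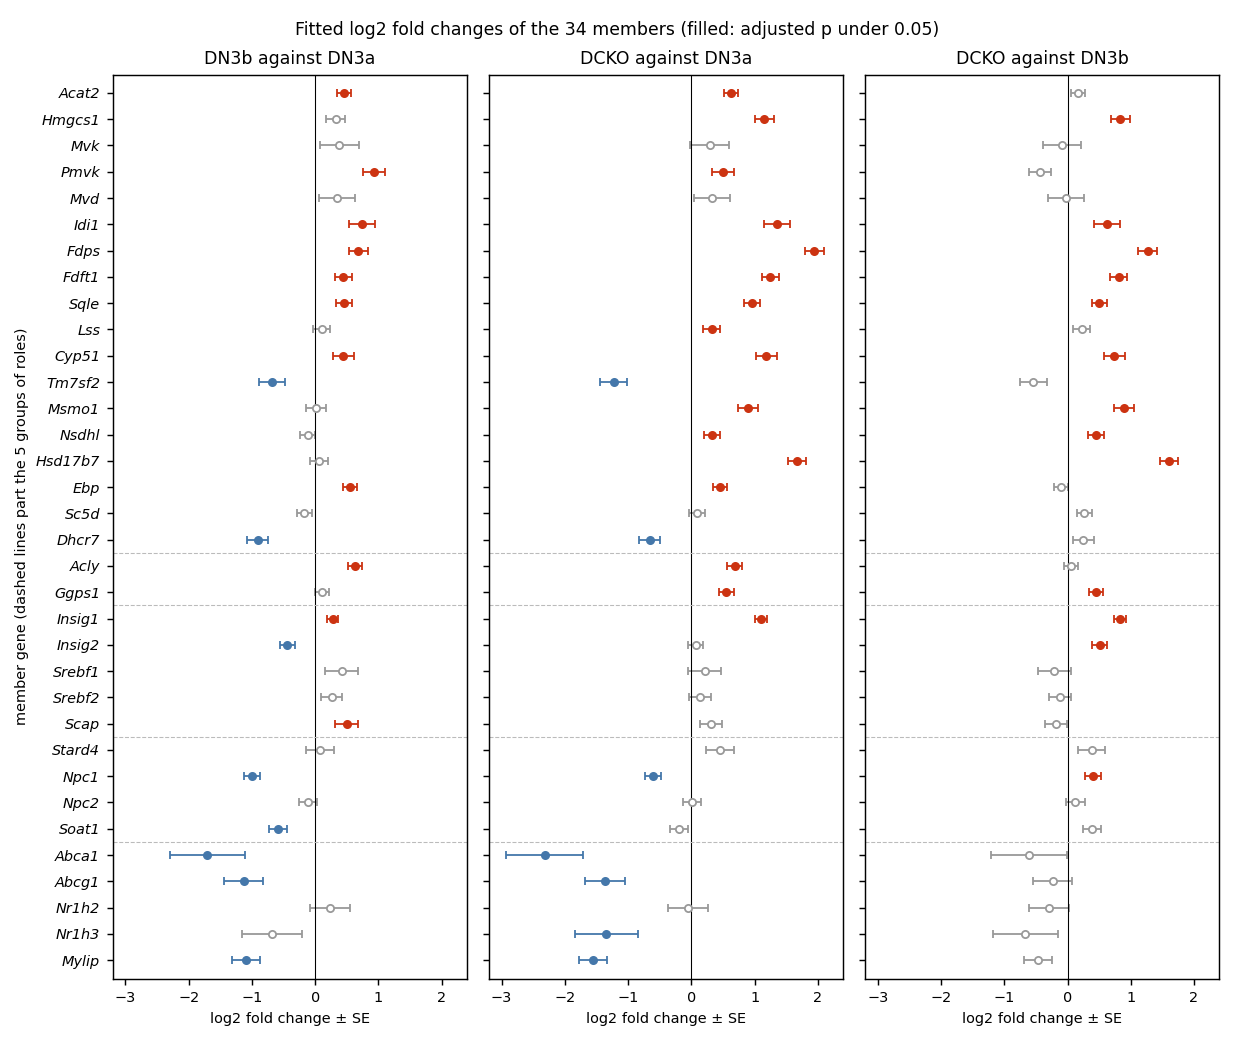
Fitted log2 fold change (horizontal axis) with its standard error for each of the 34 genes (vertical axis, grouped by role) in the 3 comparisons; filled points passed an adjusted p of 0.05, red higher and blue lower. The synthesis enzymes lie mostly to the right of 0, with Tm7sf2 and Dhcr7 on the left in both comparisons with DN3a, and no point on the left is filled in DCKO against DN3b.

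The first enzymes of the pathway rose by different amounts. Acat2, which joins acetyl-CoA units in the cytosol, stood at 44.9, 39.7, 43.0 and 47.0 CPM in DN3a, at 49.8, 56.0, 62.8 and 70.9 CPM in DN3b and at 76.0, 64.7, 65.1 and 62.9 CPM in DCKO. It rose by 0.46 ± 0.11 (log2, SE) from DN3a to DN3b (adjusted p = 0.0051), and between DN3b and DCKO the groups overlapped (0.17 ± 0.11, adjusted p = 0.333). Hmgcs1, which makes HMG-CoA and lies at chr13:119690379-119708260 of GRCm38, stood at 95.1, 102, 102 and 142 CPM in DN3a, at 112, 126, 151 and 163 CPM in DN3b and at 278, 253, 228 and 222 CPM in DCKO. Every DCKO library lay above every control library. Hmgcs1 was 1.78-fold higher in DCKO than in DN3b (log2 0.83 ± 0.15, adjusted p = 0.00228). Its difference between DN3b and DN3a was 0.32 ± 0.15 (adjusted p = 0.0839), and it passed without DN3a library 4 (0.47, adjusted p = 0.0125) and without DN3b library 1 (0.41, adjusted p = 0.0292).

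The next steps are those of the mevalonate kinases and the decarboxylase. Mvk, mevalonate kinase, was at 5.78 to 13.1 CPM in DN3a, 9.06 to 16.7 CPM in DN3b and 6.64 to 15.5 CPM in DCKO, and Mvd, the diphosphate decarboxylase, was at 7.22 to 20.0, 12.4 to 22.4 and 12.5 to 22.3 CPM. The 3 groups overlapped for both genes, and neither passed any of the 3 unblocked tests. Pmvk, phosphomevalonate kinase, stood at 8.41, 5.24, 5.99 and 7.25 CPM in DN3a, at 11.3, 12.1, 13.4 and 14.7 CPM in DN3b and at 11.4, 8.41, 8.42 and 9.95 CPM in DCKO. It had the largest rise of the 34 genes from DN3a to DN3b (1.91-fold, log2 0.94 ± 0.17, adjusted p = 0.000739). Its DCKO libraries, from 8.41 to 11.4 CPM, touched both control groups, and its difference from DN3b was -0.43 ± 0.17 (adjusted p = 0.0981). Against DN3a, Pmvk was higher in DCKO by 0.51 ± 0.17 (adjusted p = 0.0229), a call lost without DN3a library 2 (0.40), DN3a library 3 (0.46) or DCKO library 1 (0.38), with adjusted p from 0.065 to 0.0926.

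Idi1 and Fdps were called higher in all 3 comparisons. Idi1, which isomerises isopentenyl diphosphate, stood at 72.8, 92.6, 86.3 and 123 CPM in DN3a, at 111, 151, 156 and 206 CPM in DN3b and at 278, 273, 234 and 178 CPM in DCKO. It was 1.66-fold higher in DN3b than in DN3a (adjusted p = 0.00877) and 2.57-fold higher in DCKO than in DN3a (adjusted p = 0.000116). DCKO library 4 lay below DN3b library 4, and the DCKO against DN3b difference of 0.63 ± 0.20 (adjusted p = 0.0471) was lost without any 1 of DN3a libraries 2 and 3, DN3b libraries 1, 2 and 3 and DCKO libraries 1, 2 and 3 (Idi1 0.49 to 0.63, adjusted p 0.0601 to 0.141).

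Fdps, farnesyl diphosphate synthase, at chr3:89093588-89101959, stood at 87.4, 58.9, 73.4 and 92.1 CPM in DN3a, at 115, 112, 127 and 145 CPM in DN3b and at 361, 284, 256 and 298 CPM in DCKO. The 3 groups formed 3 separate steps. Fdps was 1.6-fold higher in DN3b than in DN3a (log2 0.68 ± 0.15, adjusted p = 0.00231), 3.84-fold higher in DCKO than in DN3a (1.94 ± 0.15, adjusted p = 2.71e-06) and 2.4-fold higher in DCKO than in DN3b (1.27 ± 0.15, adjusted p = 0.000155). Ggps1, which takes farnesyl diphosphate to geranylgeranyl diphosphate at the branch toward protein prenylation, was at 57.6 to 70.0 CPM in DN3a, 61.5 to 76.2 CPM in DN3b and 76.5 to 109 CPM in DCKO. Its control groups overlapped, and it was 1.37-fold higher in DCKO than in DN3b (adjusted p = 0.0149). For Ggps1 that call was lost without DN3b library 2 (0.42, adjusted p = 0.0517), DN3b library 3 (0.37, adjusted p = 0.0667) or DCKO library 1 (0.35, adjusted p = 0.0607).

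**Figure D2:**
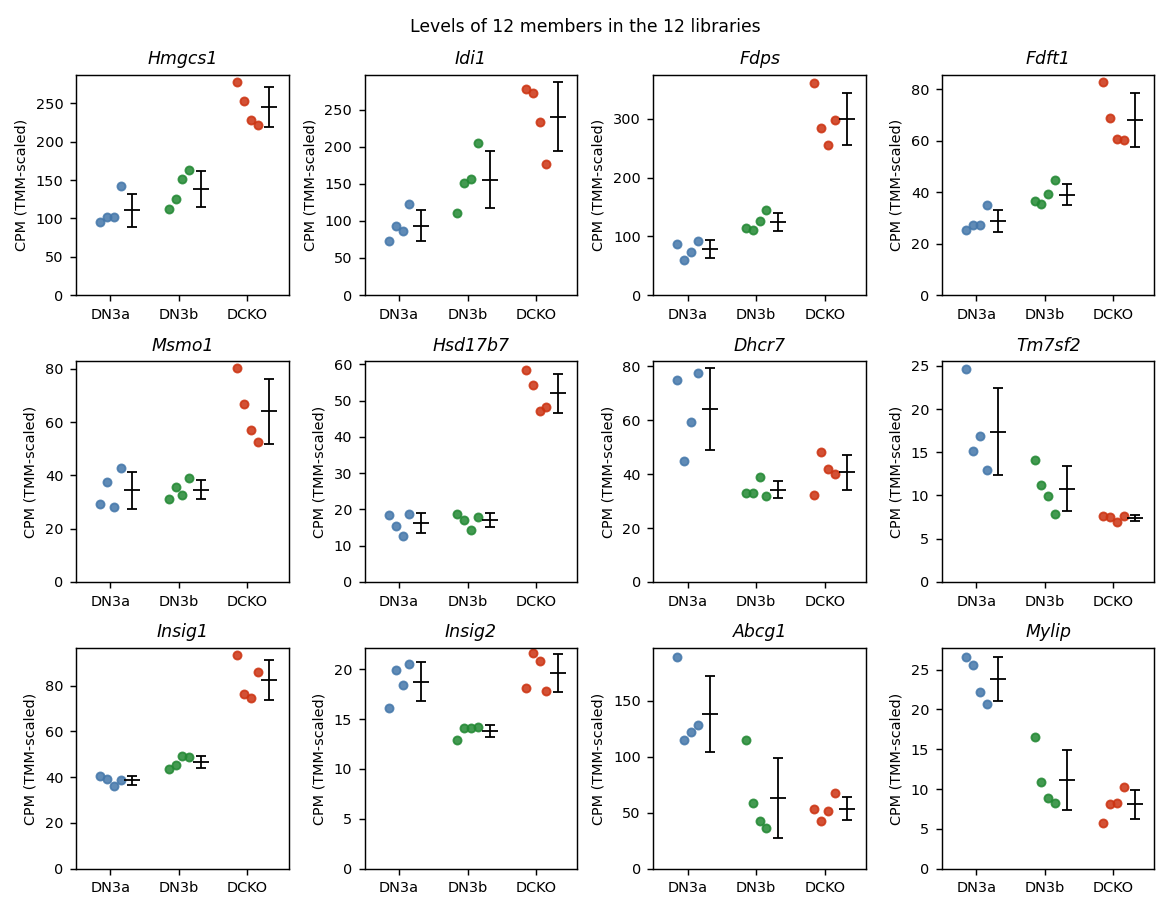
CPM (TMM-scaled, vertical axis from 0) of 12 of the genes in the 12 libraries; points are libraries 1 to 4 of each group from left to right, and the bar beside them is the mean ± SD. Fdps climbs in 3 steps, Hsd17b7 and Msmo1 are level in DN3a and DN3b and higher in DCKO, and Tm7sf2, Abcg1 and Mylip are highest in DN3a.

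Fdft1 and Sqle, which commit isoprenoids to sterol, were called in all 3 comparisons. Fdft1, squalene synthase, was at 25.3, 27.3, 27.3 and 35.0 CPM in DN3a, at 36.7, 35.5, 39.1 and 44.7 CPM in DN3b and at 82.8, 68.7, 60.7 and 60.3 CPM in DCKO. No group overlapped another. Fdft1 was 1.75-fold higher in DCKO than in DN3b (log2 0.81 ± 0.13, adjusted p = 0.00145) and 1.36-fold higher in DN3b than in DN3a (0.44 ± 0.13, adjusted p = 0.0146), the latter lost without DN3b library 4 (0.35, adjusted p = 0.0529). Library omissions were fitted without the replicate block, and with it the rise of Fdft1 in DN3b was 0.42 ± 0.07 (adjusted p = 0.000948).

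Sqle, squalene epoxidase, was at 42.5 to 60 CPM in DN3a, 59.9 to 71.4 CPM in DN3b and 84.8 to 109 CPM in DCKO. It was 1.42-fold higher in DCKO than in DN3b (log2 0.50 ± 0.12, adjusted p = 0.0138), and Sqle lost that call without DN3b library 2 (0.46, adjusted p = 0.0544) or DCKO library 1 (0.40, adjusted p = 0.0563). Lss, lanosterol synthase, was at 35.3 to 46.3, 39.9 to 49.0 and 41.4 to 61.3 CPM, so all 3 groups overlapped. Lss passed in DCKO against DN3a alone (0.32 ± 0.13, adjusted p = 0.0493), a call lost in 17 of the 21 alternatives, among them DESeq2 (adjusted p = 0.0621), limma-voom (0.0503) and the omission of any 1 of DN3a libraries 2 and 3, DN3b libraries 2, 3 and 4 and DCKO libraries 1, 2 and 4 (Lss 0.19 to 0.35, adjusted p 0.0572 to 0.224).

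Beyond lanosterol the demethylation enzymes stood out in DCKO. Cyp51, lanosterol 14-alpha-demethylase, was at 47.2, 53.3, 49.9 and 76.8 CPM in DN3a, at 69.7, 74.7, 76.7 and 88.1 CPM in DN3b and at 160, 134, 115 and 107 CPM in DCKO. It was 1.67-fold higher in DCKO than in DN3b (log2 0.74 ± 0.16, adjusted p = 0.00801), and without DCKO libraries 1 and 2 the difference was 0.52 (adjusted p = 0.118). DN3a library 4 overlapped DN3b, and the Cyp51 difference of 0.45 ± 0.16 between DN3b and DN3a (adjusted p = 0.0353) was lost without any 1 of DN3a libraries 1, 2 and 3 and DN3b libraries 2, 3 and 4 (0.36 to 0.45, adjusted p 0.0572 to 0.103). These omissions were fitted without the replicate block, and with it that Cyp51 difference was 0.44 ± 0.07 (adjusted p = 0.00118).

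Msmo1, the C4-methylsterol oxidase, stood at 29.2, 37.6, 28.1 and 42.7 CPM in DN3a, at 31.2, 35.5, 32.5 and 39.2 CPM in DN3b and at 80.2, 66.7, 56.9 and 52.7 CPM in DCKO. The control groups overlapped throughout, and every DCKO library lay above both. Msmo1 was 1.85-fold higher in DCKO than in DN3b (log2 0.89 ± 0.16, adjusted p = 0.00249), while the difference between DN3b and DN3a was 0.01 with a 95% interval of -0.36 to 0.37.

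Hsd17b7, the 3-ketosteroid reductase of the same demethylation complex, at chr1:169949535-169969241, stood at 18.5, 15.4, 12.8 and 18.6 CPM in DN3a, at 18.8, 17.1, 14.2 and 18 CPM in DN3b and at 58.5, 54.2, 47.1 and 48.3 CPM in DCKO. The lowest DCKO library was far above the highest control library. Hsd17b7 had the largest DCKO against DN3b difference of the 34 genes, 3.05-fold (log2 1.61 ± 0.14, adjusted p = 1.49e-05), and DN3b differed from DN3a by 0.06 with a 95% interval of -0.25 to 0.38. Nsdhl, which decarboxylates at C4 in the same complex, was at 17.8 to 20.3 CPM in DN3a, 13.4 to 20.0 CPM in DN3b and 21.9 to 25.0 CPM in DCKO. It was 1.37-fold higher in DCKO than in DN3b (adjusted p = 0.0242) and 1.26-fold higher than in DN3a (adjusted p = 0.0344). Nsdhl lost the first call without any 1 of DN3b libraries 2 and 3 and DCKO libraries 1, 2 and 3 (0.40 to 0.45, adjusted p 0.0598 to 0.0767), and the second without any 1 of DN3a libraries 1, 2 and 3, DN3b libraries 2 and 3 and DCKO libraries 1, 2 and 3 (0.27 to 0.32, adjusted p 0.067 to 0.108).

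Of the enzymes that act after lanosterol, 2 went the other way. Tm7sf2, a C14 sterol reductase, stood at 24.6, 15.1, 16.9 and 13.0 CPM in DN3a, at 14.1, 11.3, 9.95 and 7.88 CPM in DN3b and at 7.66, 7.52, 6.93 and 7.62 CPM in DCKO. It fell by 0.69 ± 0.21 from DN3a to DN3b (adjusted p = 0.0144) and was 2.34-fold lower in DCKO than in DN3a (adjusted p = 0.000297). All DCKO libraries lay below all DN3b libraries, by 0.54 ± 0.21 (adjusted p = 0.089), and Tm7sf2 passed there without DN3a library 1 (adjusted p = 0.0405) or DN3b library 4 (-0.68, adjusted p = 0.0368). Lbr, the lamin B receptor, which carries out the same C14 reduction, rose from 392 to 447 CPM in DN3a to 557 to 655 CPM in DN3b and was at 617 to 730 CPM in DCKO. Lbr was 1.42-fold higher in DN3b (adjusted p = 0.000747) and 1.52-fold higher in DCKO (adjusted p = 0.000142) than in DN3a.

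Dhcr7, 7-dehydrocholesterol reductase, the closing step in making cholesterol, stood at 75.0, 44.9, 59.5 and 77.6 CPM in DN3a, at 33.0, 33.1, 38.9 and 31.9 CPM in DN3b and at 32.4, 48.1, 41.8 and 40.2 CPM in DCKO. Relative to DN3a, Dhcr7 was 1.88-fold lower in DN3b (-0.91 ± 0.17 on the log2 scale, adjusted p = 0.000732) and 1.58-fold lower in DCKO (-0.66 ± 0.17, adjusted p = 0.00432), and DCKO and DN3b overlapped. Ebp, the sterol isomerase, rose to 33.2 to 39.3 CPM in DN3b from 22.2 to 26.5 CPM in DN3a (1.47-fold, adjusted p = 0.00133) and was at 29.2 to 39.0 CPM in DCKO. Ebp differed from DN3b by -0.10 in DCKO (95% interval -0.36 to 0.15), and its rise over DN3a in DCKO (0.45, adjusted p = 0.0039) was lost without DCKO libraries 1 and 2 (0.31, adjusted p = 0.063). Sc5d, lathosterol oxidase, was at 31.8 to 36.1, 28.6 to 32.9 and 28.4 to 42.2 CPM. Sc5d passed none of the 3 tests with TMM scaling on all 12 libraries. With the replicate block it was lower in DN3b than in DN3a (-0.20, adjusted p = 0.0274), and without DCKO library 4 it was higher in DCKO than in DN3b (0.37, adjusted p = 0.0211).

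**Figure D3:**
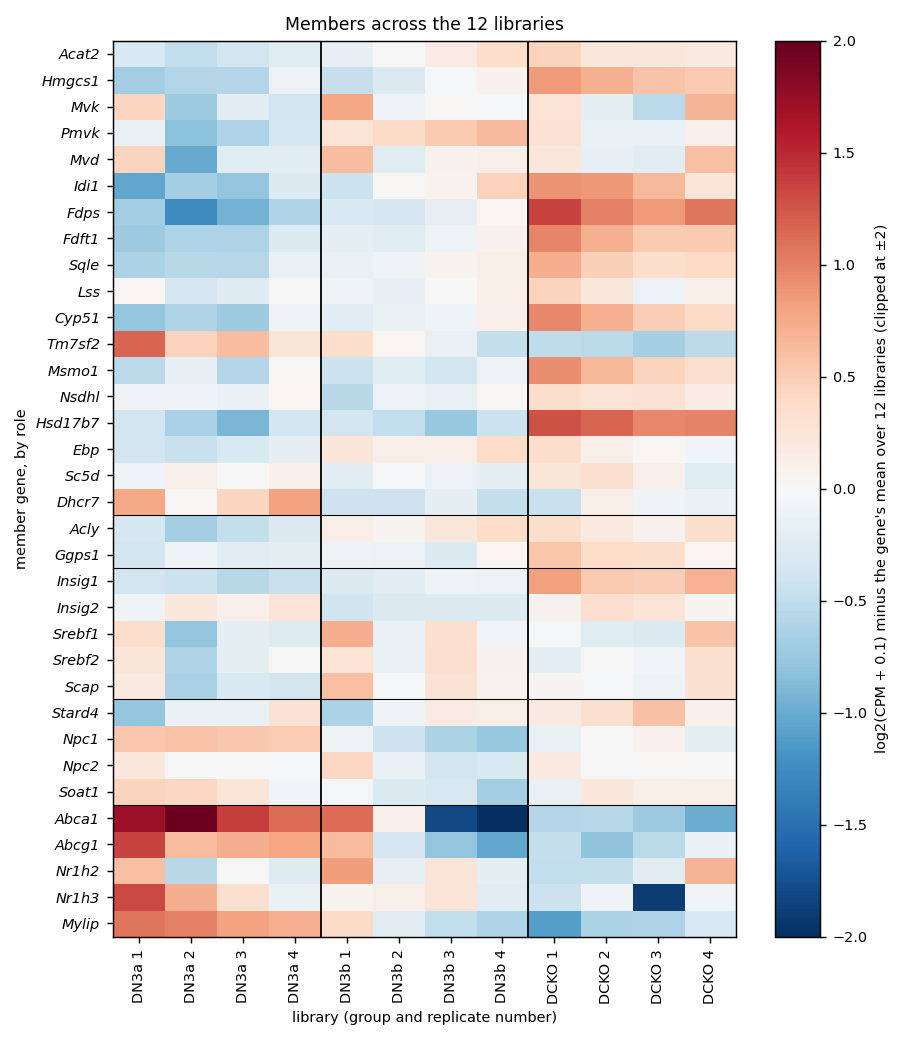
Each cell is log2(CPM + 0.1) of a gene (vertical axis, by role) in a library (horizontal axis) minus that gene's mean over the 12 libraries; red is above the mean and blue below. Fdps and Hsd17b7 are red in all 4 DCKO libraries, Abca1, Abcg1 and Mylip are red in all 4 DN3a libraries and in DN3b library 1, and Mvk, Mvd, Srebf1, Scap and Nr1h2 are red in DN3a library 1, DN3b library 1 and DCKO library 4.

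Acly, ATP citrate lyase, which makes the cytosolic acetyl-CoA for sterols and fatty acids, rose with beta-selection and was level between DN3b and DCKO. It stood at 364, 287, 330 and 376 CPM in DN3a, at 500, 475, 538 and 594 CPM in DN3b and at 582, 524, 487 and 586 CPM in DCKO. It was 1.55-fold higher in DN3b (adjusted p = 0.000579) and 1.6-fold higher in DCKO (adjusted p = 0.000227) than in DN3a. DCKO differed from DN3b by 0.05 with a 95% interval of -0.21 to 0.30.

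Among the sensing genes, the Insig genes changed most clearly. Insig1, which SREBP switches on and which retains Scap, at chr5:28071363-28078662, stood at 40.5, 39.3, 36.0 and 38.8 CPM in DN3a, at 43.7, 45.3, 49.1 and 48.8 CPM in DN3b and at 93.5, 76.4, 74.5 and 85.9 CPM in DCKO. The groups formed 3 steps with no overlap. Insig1 was 1.77-fold higher in DCKO than in DN3b (log2 0.82 ± 0.09, adjusted p = 0.000116) and 1.21-fold higher in DN3b than in DN3a (0.27 ± 0.09, adjusted p = 0.0258). The smaller rise of Insig1 was lost without any 1 of DN3a library 3 and DN3b libraries 2, 3 and 4 (0.24 to 0.28, adjusted p 0.0528 to 0.0874). Those fits held no replicate block, and with it the rise was 0.25 ± 0.08 (adjusted p = 0.0245). Insig2, its relative, stood at 16.1, 19.9, 18.4 and 20.5 CPM in DN3a, at 13.0, 14.1, 14.1 and 14.2 CPM in DN3b and at 18.1, 21.7, 20.8 and 17.8 CPM in DCKO. It fell by 0.44 ± 0.11 from DN3a to DN3b (adjusted p = 0.00624) and was 1.42-fold higher in DCKO than in DN3b (adjusted p = 0.00904), where its level overlapped that of DN3a. Without DCKO libraries 1 and 2 the Insig2 difference from DN3b was 0.48 (adjusted p = 0.0665).

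The genes that encode SREBP and its escort showed no difference between DCKO and DN3b past the threshold. Srebf1 was at 39.2 to 86.3 CPM in DN3a, 62.0 to 112 CPM in DN3b and 55.3 to 101 CPM in DCKO. Srebf2, the family member most tied to sterol genes, was at 64.1 to 116, 88.7 to 124 and 86.1 to 122 CPM, and DCKO differed from DN3b by -0.12 with a 95% interval of -0.51 to 0.27. Scap was at 74.8 to 134, 114 to 177 and 110 to 145 CPM. It was 1.41-fold higher in DN3b than in DN3a (adjusted p = 0.0323), and Scap lost the call without any 1 of DN3a libraries 2, 3 and 4 and DN3b libraries 1 and 3 (0.36 to 0.48, adjusted p 0.0706 to 0.0956). Those fits held no replicate block, and with it Scap rose by 0.48 ± 0.06 from DN3a to DN3b (adjusted p = 0.000277). Without DN3a library 1, Scap was also higher in DCKO than in DN3a (0.49, adjusted p = 0.0171). For Srebf1 and Scap the highest value of each group was in DN3a library 1, DN3b library 1 and DCKO library 4, the same 3 libraries that were highest for Mvk and Mvd.

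Of the genes that move or store sterol, 2 fell from DN3a to DN3b. Npc1, which moves cholesterol out of lysosomes, stood at 182, 185, 181 and 176 CPM in DN3a, at 116, 92.9, 80.5 and 73.5 CPM in DN3b and at 112, 125, 132 and 108 CPM in DCKO. DN3a was tight and above both other groups. Npc1 was 2-fold lower in DN3b (on the log2 scale -0.996 ± 0.128, adjusted p = 7.73e-05) and 1.52-fold lower in DCKO (adjusted p = 0.00131) than in DN3a. DCKO was higher than DN3b by 0.40 ± 0.13 (adjusted p = 0.0459), and Npc1 lost that call without any 1 library other than DN3a library 1, DN3b library 1 and DCKO library 4 (0.29 to 0.41, adjusted p 0.0585 to 0.145). Soat1, which esterifies cholesterol for storage, stood at 232, 228, 206 and 165 CPM in DN3a, at 167, 141, 137 and 106 CPM in DN3b and at 154, 199, 185 and 185 CPM in DCKO. It fell by 0.59 ± 0.14 from DN3a to DN3b (adjusted p = 0.00441). In DCKO, Soat1 differed from DN3b by 0.39 ± 0.14 (adjusted p = 0.0764), which passed without DN3b library 1 (0.50, adjusted p = 0.0318) and by DESeq2 (adjusted p = 0.0493).

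Npc2, the soluble partner of Npc1, was at 182 to 216 CPM in DN3a, 145 to 248 CPM in DN3b and 185 to 213 CPM in DCKO. DN3b library 1 held the 248 CPM, and without it Npc2 was lower in DN3b than in DN3a (-0.31, adjusted p = 0.0174) and higher in DCKO than in DN3b (0.32, adjusted p = 0.0399). Stard4, a cytosolic sterol carrier that SREBP switches on, was at 21.7 to 45.9, 24.0 to 42.1 and 40.0 to 56.2 CPM. Its difference between DCKO and DN3a was 0.45 ± 0.22 (adjusted p = 0.0881), and Stard4 passed without DN3a library 4 (0.64, adjusted p = 0.023) or DN3b library 1 (0.46, adjusted p = 0.0498).

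The exporters and Mylip were lower in both DN3b and DCKO than in DN3a. Abca1, which loads cholesterol onto apolipoproteins, stood at 18.8, 22.3, 14.9 and 12.4 CPM in DN3a, at 12.4, 6.06, 1.54 and 0.78 CPM in DN3b and at 3.75, 3.76, 3.37 and 2.81 CPM in DCKO. DN3b was the most spread of the groups: its library 1 overlapped DN3a, and its libraries 3 and 4 lay below every DCKO library. Abca1 was 5-fold lower in DCKO than in DN3a (log2 -2.32 ± 0.61, adjusted p = 0.00553) and 3.27-fold lower in DN3b (-1.71 ± 0.60, adjusted p = 0.0282). Without DN3b library 1 the Abca1 difference was -2.59 (adjusted p = 0.0012), by limma-voom it was -2.36, and with the replicate block -2.26 (adjusted p = 0.00405). The Abca1 call was lost without DN3a library 2 (-1.55, adjusted p = 0.0686) or DN3b library 3 (-1.42, adjusted p = 0.0644). Between DCKO and DN3b the Abca1 difference was -0.61 with a 95% interval of -1.97 to 0.74.

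Abcg1, which passes cholesterol to high-density lipoprotein, stood at 189, 115, 122 and 128 CPM in DN3a, at 115, 58.9, 42.9 and 36.0 CPM in DN3b and at 53.2, 42.7, 51.3 and 67.7 CPM in DCKO. It was 2.19-fold lower in DN3b (adjusted p = 0.00802) and 2.58-fold lower in DCKO (adjusted p = 0.00208) than in DN3a. Mylip, an LXR target that sends lipoprotein receptors for degradation, stood at 26.6, 25.5, 22.3 and 20.7 CPM in DN3a, at 16.6, 10.9, 8.94 and 8.23 CPM in DN3b and at 5.81, 8.07, 8.21 and 10.2 CPM in DCKO. Relative to DN3a, Mylip was 2.13-fold lower in DN3b (-1.09 ± 0.22 on the log2 scale, adjusted p = 0.00135) and 2.94-fold lower in DCKO (-1.56 ± 0.23, adjusted p = 8.48e-05). DN3b library 1 was nearest to DN3a for Abca1, Abcg1 and Mylip, and the myeloid, B cell, stromal and gamma-delta T cell sums were also highest of DN3b there, at 15.4, 32.1, 165 and 298 CPM. The T lineage sum (6060 CPM) and the erythroid and platelet sum (22.8 CPM) were highest of DN3b there too. The dendritic sum was not, at 8.5 CPM against 10.4 CPM in DN3b library 2. The myeloid, B cell, stromal, gamma-delta and erythroid and platelet sums were lower on average in DN3b and DCKO than in DN3a, as the 3 genes were. The T lineage and dendritic sums were not: in DCKO they averaged 9535 and 17.3 CPM, against 7587 and 9.56 CPM in DN3a. The myeloid sum averaged 30.7 ± 6.13 CPM (SD, n = 4) in DN3a, 10.1 ± 4.5 in DN3b and 18.4 ± 6.07 in DCKO. The B cell sum averaged 49.3 ± 6.61, 18.5 ± 9.89 and 21.0 ± 2.58 CPM, and the stromal sum 240.5 ± 32.8, 122 ± 35.5 and 121 ± 28.3 CPM. The gamma-delta sum, nearly all of it Tcrg-C1, averaged 527 ± 45.2, 204 ± 69.6 and 191 ± 73.4 CPM. Their part in these results was not tested. Between DCKO and DN3b edgeR's test called none of the 5 LXR and efflux genes, none passed 0.05 before adjustment, and DESeq2 and limma-voom called none. The median over the 5 was -0.47, with all 5 fitted differences below 0.

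The receptors themselves gave 1 call. Nr1h2, LXR-beta, was at 25.5 to 57.1 CPM in DN3a, 33.0 to 67.0 CPM in DN3b and 26.7 to 59.8 CPM in DCKO, and its 3 groups overlapped. Its highest values were again in DN3a library 1, DN3b library 1 and DCKO library 4. Nr1h3, LXR-alpha, was near the limit of detection at 0.42 to 1.33 CPM in DN3a, 0.39 to 0.58 CPM in DN3b and 0.052 to 0.45 CPM in DCKO. It was lower in DCKO than in DN3a by 1.35 ± 0.50 on the log2 scale (adjusted p = 0.0319), which Nr1h3 lost without DN3a library 1 (-1.02), DN3a library 2 (-1.32), DCKO library 1 (-1.39) or DCKO library 3 (-1), with adjusted p from 0.0508 to 0.0967.

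**Figure D4:**
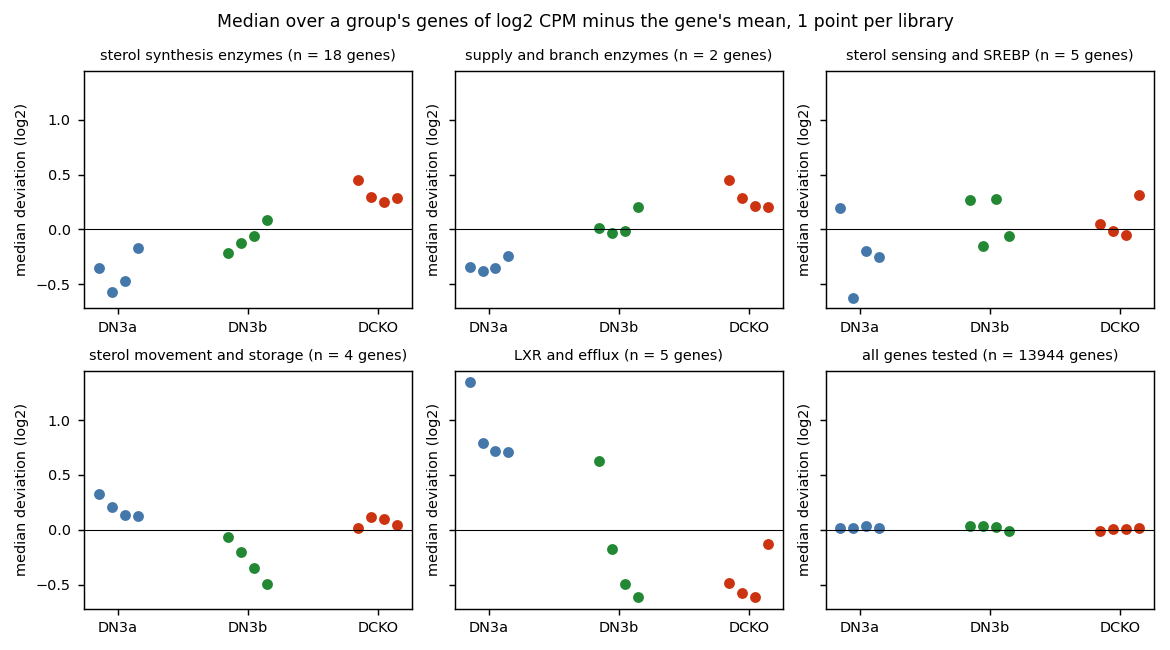
Each point is 1 library: the median, over the genes of a role, of log2 CPM minus the gene's mean over the 12 libraries (vertical axis), by group, with libraries 1 to 4 from left to right. For the synthesis enzymes DN3a lies between -0.57 and -0.17, DN3b between -0.22 and 0.085 and DCKO between 0.25 and 0.45. For the LXR and efflux genes DN3a lies between 0.71 and 1.35, DN3b between -0.61 and 0.63 and DCKO between -0.62 and -0.13, so DN3b and DCKO overlap.

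Per exon length (RPKM, the CPM divided by the exon length in kilobases), Acly was the most abundant of the 34 genes in DN3a at 64.3 RPKM, followed by Npc2 at 35.5, Idi1 at 26.7 and Hmgcs1 at 24.0 RPKM. In DCKO, Acly at 103 RPKM was followed by Fdps at 71.2, Idi1 at 68.6 and Hmgcs1 at 53.4 RPKM. Fdps thus moved from rank 7 to rank 2 and Abcg1 from rank 6 at 19.0 RPKM to rank 25 at 7.36 RPKM. Nr1h3 was last in both, at 0.32 and 0.13 RPKM, with Abca1 next to last at 1.65 and 0.33 RPKM.

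Other genes of the pathway were counted from 6 lists of 76 genes found in the table, 69 of them tested. Of the 69, 19 rose and 13 fell from DN3a to DN3b, beside 27.4% and 25.2% of all genes. In DCKO 21 were higher and 16 lower than in DN3a, beside 30.7% and 29.5%, and 6 were higher and 6 lower than in DN3b, beside 10.3% and 8.58%. Among 7 partners of sterol synthesis, 5 rose from DN3a to DN3b and none fell, and 3 were higher in DCKO than in DN3a. Between DCKO and DN3b edgeR's test called none of the 7, and 1, Cyb5r3, passed 0.05 before adjustment. Erg28, a scaffold of the C4-demethylation complex, rose 1.49-fold from DN3a to DN3b (adjusted p = 0.000449) and was at 38.0 to 47.1 CPM in DCKO, which overlaps 39.9 to 43.9 CPM in DN3b.

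Of 13 genes of the prenylation, dolichol and ubiquinone branches, 6 rose from DN3a to DN3b and none fell, and 7 were higher and 1 lower in DCKO than in DN3a. Pdss1, which builds the ubiquinone side chain, rose 2.19-fold from DN3a to DN3b (adjusted p = 0.00063). Rabggtb, a subunit of the Rab geranylgeranyl transferase, was the 1 gene of this list higher in DCKO than in DN3b, at 155 to 234 CPM against 98.2 to 140 CPM (1.52-fold, adjusted p = 0.0097). Coq2 and Icmt, of ubiquinone synthesis and of prenyl-cysteine methylation, were 1.47-fold and 1.55-fold higher in DCKO than in DN3a (adjusted p = 8.87e-05 and 0.00018).

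Fatty acid synthesis genes were mixed: of 13 tested, 3 rose and 4 fell from DN3a to DN3b, 4 were higher and 2 lower in DCKO than in DN3a, and 3 were higher in DCKO than in DN3b. Fasn, fatty acid synthase, was at 134 to 267 CPM in DN3a, 371 to 545 CPM in DN3b and 349 to 639 CPM in DCKO, and rose 2.35-fold from DN3a to DN3b (adjusted p = 0.000567). Mid1ip1, which activates acetyl-CoA carboxylase, rose 2.34-fold (adjusted p = 0.000371), and Acaca, that carboxylase, was 2.41-fold higher in DCKO than in DN3a (adjusted p = 3.47e-05). Acss2, which makes acetyl-CoA from acetate, was 2.75-fold lower in DCKO than in DN3a (adjusted p = 5.29e-05), against the 1.6-fold rise of Acly, which makes it from citrate. Scd2 and Fads2, 2 desaturases, were 1.40-fold and 1.43-fold higher in DCKO than in DN3b (adjusted p = 0.00346 and 0.0183).

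Of 13 other genes of sterol movement and ester hydrolysis, 2 rose and 3 fell from DN3a to DN3b, and 3 were higher and 6 lower in DCKO than in DN3a. Between DCKO and DN3b 1 was higher and 2 were lower. Tmem97, an endoplasmic reticulum protein that binds Npc1 and limits it, stood at 20.1, 18.3, 21.7 and 32 CPM in DN3a, at 59.7, 64.0, 73.6 and 87.5 CPM in DN3b and at 111, 87.8, 83.0 and 90 CPM in DCKO. It was 3.10-fold higher in DN3b (adjusted p = 3.87e-05) and 4.04-fold higher in DCKO (adjusted p = 4.54e-06) than in DN3a. Lipa, which frees cholesterol from esters in lysosomes, fell by 0.64 ± 0.15 from DN3a to DN3b (adjusted p = 0.003). Gramd1b, which carries cholesterol from the plasma membrane inward, was 2-fold lower in DCKO than in DN3a and 1.59-fold lower than in DN3b (adjusted p = 9.4e-05 and 0.00741), and Osbpl1a was 1.61-fold higher in DCKO than in DN3b (adjusted p = 0.00863).

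Of 12 other LXR targets, partners and oxysterol enzymes tested, 2 rose and 4 fell from DN3a to DN3b, and 1 was higher and 4 were lower in DCKO than in DN3a. Between DCKO and DN3b, 3 of the 12 were lower, Smpdl3a and Rxra among them, beside 8.58% of all genes. Smpdl3a, an LXR target, was 1.97-fold lower in DN3b and 4.09-fold lower in DCKO than in DN3a (adjusted p = 0.00277 and 1.58e-05), and 2.08-fold lower in DCKO than in DN3b (adjusted p = 0.00682). Arl4c, another, was at 73.1 to 121 CPM in DN3a, 12.4 to 51.0 CPM in DN3b and 47.1 to 59.0 CPM in DCKO, and fell by 1.87 ± 0.37 from DN3a to DN3b (adjusted p = 0.00111). Lpcat3, a phospholipid remodelling enzyme and LXR target, was 1.45-fold lower in DCKO than in DN3a (adjusted p = 0.000977). Rxra, the receptor that pairs with LXR, was 2.33-fold higher in DN3b than in DN3a (adjusted p = 0.000256) and 1.64-fold lower in DCKO than in DN3b (adjusted p = 0.0201). Of 11 genes of SREBP processing and sterol-driven degradation, 1 rose and 2 fell from DN3a to DN3b, and 3 were higher and 3 lower in DCKO than in DN3a. Rnf145, a ubiquitin ligase of that pathway, was at 92.6 to 112 CPM in DCKO against 65.6 to 74.7 CPM in DN3b (1.46-fold higher, adjusted p = 0.0011). Erlin2 fell by 0.42 ± 0.07 and Pgrmc1 rose by 0.39 ± 0.13 from DN3a to DN3b (adjusted p = 0.000575 and 0.021).

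The reference table of promoters (RefSeq, GRCm38.p6) gave 37 windows, from 250 bases before to 50 after a start, for 28 of the 34 genes. Fdps, Fdft1, Sqle and Abcg1 were among the genes without a window. The sterol regulatory element TCACNCCAC, searched on both strands, was in 1 of the 37 windows (2.7%), that of Hmgcs1, against 1.24% of all 32851 windows and 1.15% of the 12451 windows of genes tested. Only exact matches counted, with N as the 1 free base, so a window without a match may still hold a variant of the element. The element of Hmgcs1 began 137 bases before the start. It is shown here with its surroundings (chr13:119690154-119690282, plus strand), the element and a CCAAT box (read as ATTGG on this strand) in capitals, since Hmgcs1 was among the genes higher in every DCKO library.
Hmgcs1 promoter: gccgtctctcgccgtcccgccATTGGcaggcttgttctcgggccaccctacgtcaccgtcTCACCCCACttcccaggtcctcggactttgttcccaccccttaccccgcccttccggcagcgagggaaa
The CCAAT box, the site of the factor NF-Y that works beside SREBP, was in 14 of 18 windows of synthesis enzymes (77.8%) and in 1 of 5 windows of LXR and efflux genes, against 38.1% of the windows of genes tested. The 18 windows came from 15 synthesis enzymes and the 5 from 4 LXR and efflux genes, with more than 1 window for Nr1h3. These matches are letters only and say nothing of binding in these cells.

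The AU-rich heptamer TATTTAT, a core of the sites that Zfp36l1 and Zfp36l2 bind, was in the longest annotated 3' untranslated region of 9 of the 34 genes (26.5%), against 27.6% of 20679 genes with such a region. Hsd17b7 held 5 copies, Ggps1, Insig1 and Insig2 held 2 each, and Sc5d, Srebf1, Npc2, Soat1 and Mylip held 1 each. Of these 9 genes 4 were called higher in DCKO than in DN3b: Hsd17b7, Ggps1, Insig1 and Insig2, of which the Ggps1 and Insig2 calls did not hold in every alternative. The first copy in each of the 4, with 10 bases on either side on the sense strand (GENCODE, GRCm38), is shown with the heptamer in capitals, to show the letters searched for beside the members called higher.
Hsd17b7: tcttgactttTATTTATtgtacaggat
Ggps1: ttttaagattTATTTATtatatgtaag
Insig1: gtagtaagaaTATTTATccagaattaa
Insig2: gcctgccatgTATTTATgggttaagtc
Among all genes tested, 21.5% of the 3484 with the heptamer and 7.62% of the 8193 without it were higher in DCKO than in DN3b. Among the 34 genes, 4 of 9 with it and 9 of 25 without it were higher (44.4% and 36%), so most of the sterol genes that were higher in DCKO, such as Fdps, Fdft1, Cyp51 and Msmo1, did not hold these letters in the annotated region. That region was only 55 bases long in Fdps. The shorter AU-rich letters ATTTA were in it 3 times in Fdft1, 3 times in Cyp51 and 1 time in Msmo1, so lacking the heptamer is not lacking every AU-rich site.

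Exons of some of the genes share bases with another gene's exons, and whether the counting used strand was not given in the sources used here. On the opposite strand Fdft1 shares 774 bases with Ctsb, Ggps1 257 with Arid4b, Cyp51 166 with Akap9, Srebf1 109 with Rai1 and Npc1 511 with Rmc1. On the same strand Tm7sf2 shares 532 bases with Vps51, Fdps 1124 with Gm43738 and Nr1h3 34 with Gm13783. Hmgcs1 shares 557 with Gm48342, Idi1 323 with Gm48574, Scap 985 with 5830462I19Rik and Lss 381 with 4930483K19Rik, all on the opposite strand. Gm43738, Gm48342 and Gm48574 had no row in the count table. The values of the genes of the list named in this paragraph are less certain for that reason, and the effect of the overlap on them was not tested.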

How the data were processed

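The deposited gene counts of the 12 libraries were used as whole numbers. Per the labels, ribosomal RNA was removed from column-purified RNA (RNeasy Micro) before TruSeq Stranded Total RNA library preparation. Per the submitters' processing notes, the authors worked with the build GRCm38 and used HTSeq, Trim Galore, DESeq2 1.6.3 and TopHat2 2.0.12, and the annotation was not given in the sources used here. Ensembl identifiers were matched to symbols of GENCODE. The authors' normalized table and tables of comparisons were not used.

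Counts were fitted with edgeR 4.0.16 (R 4.3.3) over all 12 libraries, with TMM scaling, filterByExpr with a minimum count of 10, and the quasi-likelihood test of 3 contrasts. P-values were adjusted by Benjamini-Hochberg over 13944 genes. Fold changes are on the log2 scale with SE. The 95% intervals are the fitted difference with its SE and a t quantile on 9 residual degrees of freedom. The 21 alternatives were other scalings and filters, DESeq2 1.42.0, limma-voom (limma 3.58.1), a fit on 8 libraries, a replicate block, and libraries left out.

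DN3a and DN3b libraries of the same number correlated in their deviations from the group means (0.443, 0.564, 0.354 and 0.521), so the numbers pair those samples, as far as the data show. DCKO numbers did not pair with either group. Replicates of a group differed by far more than sampling noise. The labels call them biological replicates and do not say that each is a separate animal. The 34 genes, the other pathway lists and the markers were chosen with earlier results of these data known. All 34 genes are named, and of each other list up to 2 called genes per comparison with the smallest adjusted p; Cyb5r3 was named after its values were seen, and some results are not reported here.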

Additional observations from a re-analysis of the deposited data

Results flagged for a closer look

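In 5 of 102 groups of 4 libraries (34 genes in 3 groups), 1 library lay far from the other 3 by Dixon's criterion, a number close to the 1 in 20 that chance gives. Hmgcs1 was 142 CPM in DN3a library 4, against 95.1 to 102 CPM in the other DN3a libraries, and Sqle was 60 CPM in the same library, against 42.5 to 45.1 CPM. Mvk was 16.7 CPM in DN3b library 1, against 9.06 to 9.82 CPM, and Insig2 was 13.0 CPM there, against 14.1 to 14.2 CPM. Nr1h2 was 59.8 CPM in DCKO library 4, against 26.7 to 31.9 CPM.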

How the results depend on the processing

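Depth was not the limit for most of the 34 genes; Nr1h3, at under 1.4 CPM, was dropped by the stricter filter, which left 33 genes. Over 21 alternatives and the 3 comparisons, 1935 of the refitted differences kept direction and side of the threshold, 118 lost a call, 22 gained one and 64 changed sign, none of the last among called differences. The cause was not tested for any of these. The number of genes higher in DN3b than in DN3a, 11, was 7 with upper quartile scaling and 17 with the replicate block, beside 21.7% and 33% of all genes. The number higher in DCKO than in DN3b, 13, was 7 with the replicate block, 6 without DCKO libraries 1 and 2, and 8 to 14 with 1 library left out. The number lower there, 0, was 1 with upper quartile scaling (Pmvk) and 0 to 1 with 1 library left out (Tm7sf2). DCKO libraries did not deviate with the same-numbered DN3a or DN3b libraries (correlations from -0.257 to 0.119), so there the block stands for a shared number only. The replicate block changed no other call in DN3b against DN3a than the 7 gained, and ended none. Over all genes, 1438 were higher and 1197 lower in DCKO than in DN3b; 589 and 473 were with the block, 528 and 422 without DCKO libraries 1 and 2, and with 1 library left out the lowest were 783 and 773. The all-gene median under upper quartile scaling was -0.167, -0.264 and -0.101 in DN3b against DN3a, DCKO against DN3a and DCKO against DN3b, beside 0.222, 0.342 and 0.277 for the synthesis enzymes.

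Signs changed as follows. With upper quartile scaling the values in DN3b against DN3a were -0.045 for Lss, -0.14 for Msmo1, -0.0798 for Hsd17b7, -0.043 for Ggps1 and -0.068 for Stard4; in DCKO against DN3a -0.14 for Sc5d, -0.16 for Insig2, -0.0059 for Srebf1, -0.0796 for Srebf2 and -0.22 for Npc2; and in DCKO against DN3b -0.028 for Acly. Msmo1 in DN3b against DN3a was -0.0046 with RLE scaling, -0.037 with the stricter filter, -0.0021 with DESeq2, -0.015 with 8 libraries, -0.0011 with the block and -0.0065 without DCKO libraries 1 and 2. Npc2 in DCKO against DN3a was -0.044 with the stricter filter, -0.034 with 8 libraries, -0.032 with the block and -0.0595 without DCKO libraries 1 and 2. Abca1 in DCKO against DN3b was 0.041 with limma-voom and 0.067 with the block. Without DCKO libraries 1 and 2, Sc5d was -0.11 and Nr1h2 0.26 in DCKO against DN3a, and Mvd was 0.068 and Nr1h2 0.0396 in DCKO against DN3b.

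With 1 library left out, the values in DN3b against DN3a ranged from -0.077 to 0.13 for Msmo1, -0.036 to 0.14 for Hsd17b7, -0.091 to 0.26 for Stard4 and -0.024 to 0.497 for Nr1h2. In DCKO against DN3a they ranged from -0.015 to 0.201 for Sc5d, -0.014 to 0.12 for Insig2, -0.011 to 0.43 for Srebf1, -0.069 to 0.0597 for Npc2 and -0.4004 to 0.21 for Nr1h2. In DCKO against DN3b they ranged from -0.33 to 0.17 for Mvk, -0.22 to 0.15 for Mvd, -0.019 to 0.095 for Acly, -0.99 to 0.28 for Abca1 and -0.44 to 0.22 for Abcg1.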
